A study of Mus musculus with 17 samples.

Results

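Imprinted genes were followed in sorted mouse β cells as a set of 10 genes chosen by symbol: *Meg3*, *Rian*, *Mirg*, *Dlk1*, *Igf2*, *H19*, *Peg3*, *Plagl1*, *Cdkn1c* and *Grb10*. They are 10 of the 55357 genes in the deposited transcript tables, and 162 of the 142376 transcripts belong to them. RNA sequencing covered 17 samples of β cells from islets cultured for 3 days in glucose at 2.8 mM (low) or 16.7 mM (high). Control cells gave 3 low-glucose and 4 high-glucose samples, and *Pcbp2* βKO cells gave 5 samples in each condition. Control cells, called WT in the labels, came from tdTomato mice, which carry RIP-Cre and the Cre-inducible Rosa26 tdTomato reporter. *Pcbp2* βKO cells came from mice with RIP-Cre, tdTomato and homozygous loxP-flanked (Fl/Fl) *Pcbp2* alleles, so that all groups share the Cre transgene, the reporter and the tdTomato+ sort, and the loxP alleles are in the knockout groups alone. RIP-Cre is driven by the rat insulin promoter, so that deletion and label both depend on cells in which that promoter was active. The mice were male on a C57BL/6 background, the labels give no age, and no source says whether samples with different replicate numbers came from separate mice. The p values below therefore measure the spread between these samples.

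Imprinted genes are expressed mainly from the copy inherited from one parent. Many of them act on growth, either as growth factors and their antagonists or as regulators of the cell cycle, and several lie together in clusters that share a control region. In the Dlk1-Meg3 domain, the noncoding RNAs *Meg3*, *Rian* and *Mirg* are transcribed in one direction from the maternal copy, *Rian* being a host of snoRNAs and *Mirg* of microRNAs, while the paternal copy gives *Dlk1*, a membrane-bound relative of the Notch ligands. The *MEG3* noncoding RNA and the microRNAs of this domain are known from studies of islets and diabetes.

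Positions are those of GRCm39 in the GENCODE annotation. On chromosome 12, *Dlk1* (chr12:109418749-109429262), *Meg3* (chr12:109506877-109538165), *Rian* (chr12:109570242-109628150) and *Mirg* (chr12:109696198-109715898) lie in this order on the plus strand, with gaps of 77614, 32076 and 68047 bp between them. On chromosome 7, *H19* (chr7:142129262-142133957) and *Igf2* (chr7:142204503-142220694) lie 70545 bp apart on the minus strand, and *Cdkn1c* (chr7:143012069-143014806) follows 791374 bp further on. *Peg3* (chr7:6706882-6733468, minus strand), *Plagl1* (chr10:12936248-13007438, plus strand) and *Grb10* (chr11:11880498-11988683, minus strand) each lie in a locus of their own. The library kit was not stated to keep strand, so reads of *Mirg*, *Plagl1*, *Cdkn1c*, *Igf2* and *H19* cannot be told from those of antisense genes that the annotation places over their exons, which were listed, for all but *Mirg*, at means of at most 0.0891 TPM (the unit in which reads are corrected for transcript length and scaled to the same total in every sample).

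The noncoding members carry small RNAs, whose sequences show what else these loci encode. RefSeq (GRCm38.p6) places 17 microRNA genes, with 32 mature sequences, inside 5 members. *Mirg* holds 10 of the genes, *Rian* 3, *Meg3* 2, and *H19* and *Igf2* 1 each. The GENCODE annotation also places Mir134, Mir382, Mir485 and Mir668 over exons of *Mirg*, which are not among these, so the counts depend on the annotation used. One mature form of each host is printed here, with 2 for *Mirg* because they are the only pair among the 32 with the same seed. Capitals mark the seed, bases 2 to 8.
miR-770-3p (Meg3): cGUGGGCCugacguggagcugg
miR-370-3p (Rian): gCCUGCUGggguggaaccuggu
miR-453 (Mirg): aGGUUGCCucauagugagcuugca
miR-496a-5p (Mirg): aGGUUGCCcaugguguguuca
miR-675-5p (H19): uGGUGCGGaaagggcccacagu
miR-483-3p (Igf2): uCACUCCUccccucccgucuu
The labels give polyadenylated RNA as the material. Mature microRNAs were therefore not measured, and the values of *Meg3*, *Rian* and *Mirg* below are those of the host transcripts. Some small RNA genes within the hosts are also listed in the tables, the highest being Mir496a in *Mirg* at a mean of 2.39 TPM and Gm55095 in *Meg3* at 2.29 TPM, so the division of reads between them and the hosts is uncertain.

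The promoter of *Meg3* is shown because *Meg3*, *Rian* and *Mirg* were the members that differed together between the glucose concentrations, and *Meg3* lies first among them in the direction of transcription. Of its 2 annotated starts in RefSeq, the window printed here holds the upstream one, at chr12:109540746-109541045 of GRCm38.p6 on the plus strand. Capitals mark a cAMP response element, TGACGTCA, the palindrome bound by CREB and its relatives.
*Meg3* promoter: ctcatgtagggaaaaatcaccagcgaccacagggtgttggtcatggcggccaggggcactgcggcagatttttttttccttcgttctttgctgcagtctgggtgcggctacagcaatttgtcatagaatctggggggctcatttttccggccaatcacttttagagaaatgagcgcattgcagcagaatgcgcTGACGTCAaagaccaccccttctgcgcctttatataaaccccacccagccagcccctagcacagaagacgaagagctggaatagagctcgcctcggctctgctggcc
The element begins at position -57, counted from 0 at the annotated start. Windows of this length were given for 8 of the 10 members, 13 windows in all, and 2 of them held TGACGTCA on either strand, that of *Meg3* and that of *Peg3* at -178, against 1.79% of 32851 promoter windows of mouse genes. The E-box CACGTG was in 1 of the 13 windows, that of *Plagl1*, against 7.15% of all windows. A match describes the letters of the window and says nothing of binding in these cells.

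The samples held 47385513 to 82419400 estimated counts each. Counts were expressed as CPM, scaled to library size with edgeR's TMM factors and not corrected for length, and 22784 genes passed its filter on low counts. *Pcbp2* was at 50.7 to 73.4 CPM in control and 15.5 to 19.2 CPM in *Pcbp2* βKO cells at 2.8 mM, and at 35 to 45.4 and 5.81 to 10 CPM at 16.7 mM, so every library followed its genotype label. The sums of 10 β cell markers were 67100 to 123000 CPM at 2.8 mM and 273000 to 528000 CPM at 16.7 mM. Markers of other islet cells were also present, with 4 alpha cell markers at 174 to 9200 CPM in sum, 3 delta cell markers at 73.1 to 949 CPM and *Ppy*, the marker of PP cells, at 224 to 5110 CPM. The sums were 384 to 1180 CPM for 3 ductal, 20.6 to 103 CPM for 5 macrophage, 1.68 to 10.5 CPM for 3 Schwann cell and 2.18 to 271 CPM for 6 proliferation markers, while 5 acinar, 4 endothelial and 5 stellate cell markers each summed to at most 1.45 CPM. In the ductal sum *Krt7* was at 339 to 557 CPM and *Spp1* at 6.67 to 799 CPM, while *Krt19* was at most at 2.17 CPM. In the macrophage sum *C1qa* was at 12.7 to 101 CPM and *Cd68* at most at 15.5 CPM. *Adgre1*, *Csf1r* and *Ptprc* were each at most at 4.61 CPM. Among the samples at 16.7 mM, control replicate 4 and *Pcbp2* βKO replicates 4 and 5 stood apart on the first principal component, the main axis of difference between samples. Their alpha cell markers summed to 1460, 966 and 1320 CPM, against 174 to 449 CPM in the other 6 high-glucose samples. In such sorted pools, fewer cells of a type and less RNA per cell cannot be told apart.

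The members spanned a wide range of levels. Averaged over the 17 samples, *Peg3* was at 114 TPM and *Meg3* at 69.1 TPM, above 97.3% and 95.3% of the genes tested. *Grb10* followed at 8.06 TPM, *Rian* at 6.07, *Dlk1* at 2.59, *Plagl1* at 1.85, *Mirg* at 1.67, *Cdkn1c* at 0.497 and *Igf2* at 0.353 TPM. *Meg3* was above *Grb10* in 17 of 17 samples, with ranges of 30.6 to 103 and 2.44 to 14.7 TPM, and *Rian* was above *Dlk1* in 16. The ranges of the other neighbours above *H19* in this order overlapped. *Peg3* was above *Meg3* in 11 of 17 samples, *Grb10* above *Rian* in 10, *Plagl1* above *Mirg* in 6 and *Cdkn1c* above *Igf2* in 9.

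**Figure D1:**
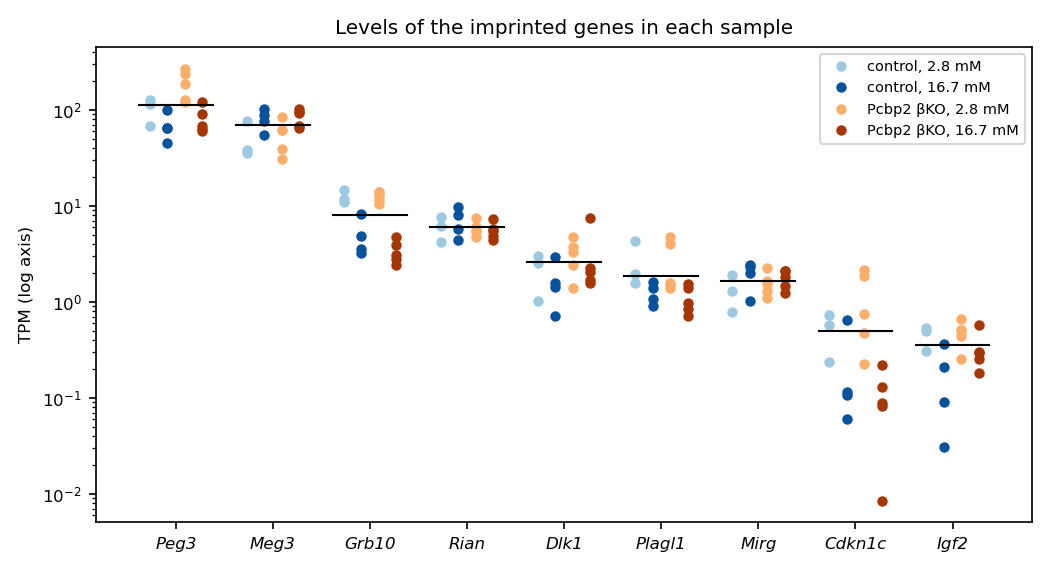
TPM of 9 imprinted genes on a log axis, in order of their mean over 17 samples (black line), with a point for each sample coloured by group. *Peg3* and *Meg3* lie above the other members in every sample, and *H19*, at 0 in every sample, is not drawn.

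*H19*, a maternal noncoding RNA that is abundant in fetal tissue, had an estimated count of 0 for all 7 of its transcripts in 17 of 17 samples. Allowing 3 counts for a count of 0 gives an upper limit of 0.03 to 0.0613 CPM for single samples, for counting error only. *H19* was not tested, and 9 of the 10 members passed the filter. *Igf2*, the paternal growth factor gene beside it, was near the limit of detection, at 0.0336 to 0.809 CPM, and a transcript annotated as noncoding (Igf2-208) took most of its TPM, with mean shares of 67.7% to 80.6% in the 4 groups.

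The first question was how the members differ between low and high glucose. In control cells, *Meg3*, *Rian* and *Mirg* were higher at 16.7 mM and *Grb10*, an adaptor that restrains signalling from the insulin and IGF receptors, was lower. The same 4 members changed in the same directions in *Pcbp2* βKO cells, where *Cdkn1c*, a maternally expressed inhibitor of cyclin-dependent kinases, was also lower. A call required a fold change above 1.5 together with an adjusted p below 0.05 in edgeR's quasi-likelihood test over all genes tested. In control cells, 3 of 9 members were called higher and 1 lower, against 7.15% and 6.69% of all genes tested. In *Pcbp2* βKO cells, 3 of 9 were called higher and 2 lower, against 13.4% and 10.4%. These counts are not a test of the set. The 3 called higher are neighbours in the same domain that varied together between samples. The members were also chosen with earlier results of these data known. With the replicate number as a block within genotype, 5024 genes were called in control cells in place of 3153, and the same 4 members. The median log2 fold change of the 9 members was 0.20 in control and 0.36 in *Pcbp2* βKO cells, and that of all genes was 0.04 and 0.01.

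*Meg3* was at 78.2, 81.6 and 138 CPM in the control samples at 2.8 mM and at 282, 290, 308 and 132 CPM in those at 16.7 mM. The 3 first samples at 16.7 mM were thus above every sample at 2.8 mM, and replicate 4 was below the highest of them. Its level in *Pcbp2* βKO cells was 77, 53, 137, 93.2 and 111 CPM at 2.8 mM and at 219, 262, 339, 195 and 296 CPM at 16.7 mM, with no overlap. The fitted change was 2.55-fold in control cells (log2 fold change 1.35, SE 0.33, adjusted p = 0.00989) and 2.78-fold in *Pcbp2* βKO cells (log2 fold change 1.48, SE 0.27, adjusted p = 0.000447).

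*Rian*, the snoRNA host, was at 10.1, 14.9 and 19.3 CPM in control cells at 2.8 mM and at 27.2, 43, 34.4 and 15.3 CPM at 16.7 mM. Replicate 4 at 16.7 mM again lay among the low-glucose samples and the other 3 above them. The *Pcbp2* βKO samples were at 11.6, 11.2, 13.5, 10.2 and 17.8 CPM at 2.8 mM and at 27.7, 24.1, 31.9, 15.5 and 27.5 CPM at 16.7 mM, where replicate 4 was the 1 sample below the highest value at 2.8 mM. The fitted change was 2.03-fold in control (adjusted p = 0.0331) and 1.97-fold in *Pcbp2* βKO cells (adjusted p = 0.00699).

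*Mirg*, the microRNA host, was the lowest of the 3 noncoding RNAs. In control cells it was at 0.903, 1.1 and 2.18 CPM at 2.8 mM and at 5.07, 5.43, 5.11 and 1.69 CPM at 16.7 mM. As for *Meg3* and *Rian*, replicate 4 stayed within the range of the low-glucose samples. The *Pcbp2* βKO samples were at 1.47, 0.974, 1.65, 1.09 and 1.72 CPM at 2.8 mM and at 2.77, 3.71, 5.27, 2.67 and 4.5 CPM at 16.7 mM, without overlap. The fitted change was 3.1-fold in control (log2 fold change 1.63, SE 0.41, adjusted p = 0.0123) and 2.73-fold in *Pcbp2* βKO cells (log2 fold change 1.45, SE 0.33, adjusted p = 0.00287).

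*Grb10* moved the other way. In control cells it was at 65.2, 80.4 and 55.2 CPM at 2.8 mM and at 40.3, 31.1, 40.7 and 59.9 CPM at 16.7 mM, and the 1 high-glucose sample within the low-glucose range was replicate 4. The *Pcbp2* βKO samples were at 62.1, 66.1, 49.3, 55.1 and 58.7 CPM at 2.8 mM and at 32, 29.4, 25.6, 41.9 and 36.6 CPM at 16.7 mM, with no overlap. The level at 16.7 mM was 0.642 of that at 2.8 mM in control cells (log2 fold change -0.64, SE 0.20, adjusted p = 0.0382), and the log2 fold change was -0.82 in *Pcbp2* βKO cells (SE 0.17, adjusted p = 0.00138).

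**Figure D2:**
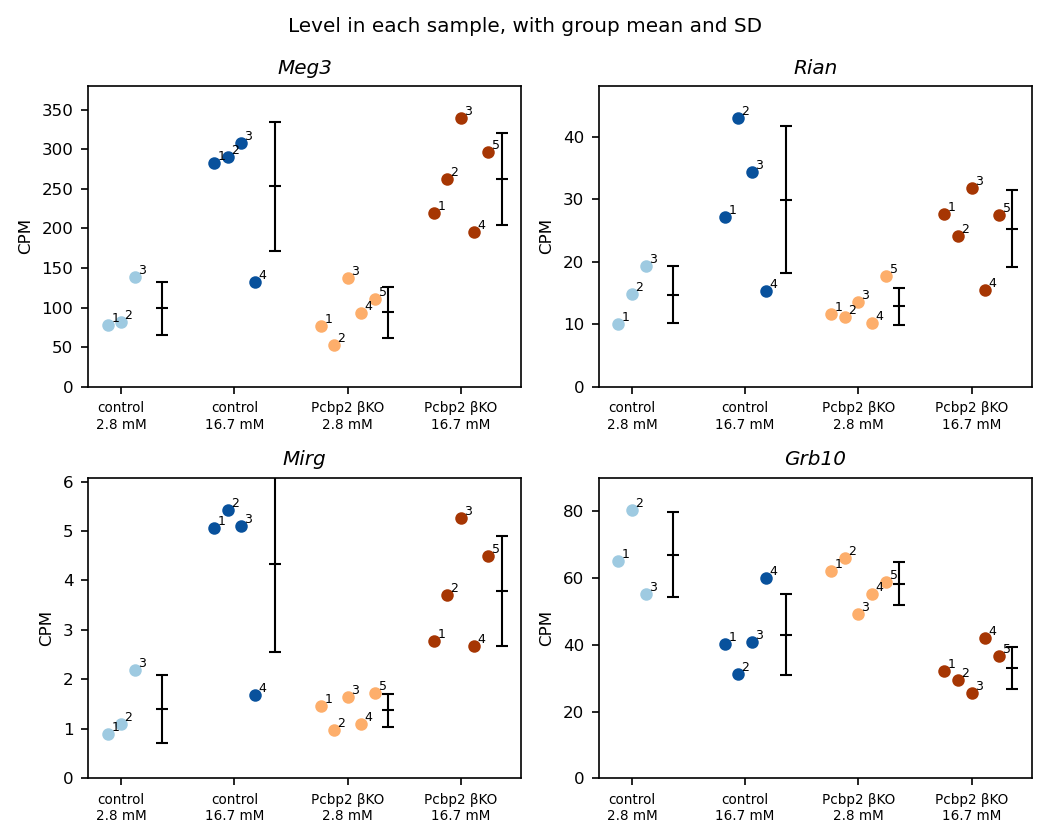
CPM of *Meg3*, *Rian*, *Mirg* and *Grb10* in each sample by group, with replicate numbers beside the points and the group mean and SD (black). In each panel the high-glucose control sample nearest the low-glucose samples is replicate 4.

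Replicate 4 of the control cells at 16.7 mM differed from the other 3 in cell markers too. Its β cell markers summed to 273000 CPM against 374000 to 528000 in the other 3 samples, its alpha cell markers to 1460 against 262 to 358 CPM, and *Ppy* was at 631 against 224 to 318 CPM. Their part in the values of *Meg3*, *Rian*, *Mirg* and *Grb10* was not tested. Without this sample and replicates 4 and 5 of *Pcbp2* βKO cells at 16.7 mM, which stood apart with it, 4 and 5 members were called in control and *Pcbp2* βKO cells, the same numbers as with them. The calls in control cells rested on few samples. No member was called without replicate 1 or replicate 2 at 2.8 mM, when *Meg3* had an adjusted p of 0.0568 and 0.0643, and 2 were called without replicate 2 or 3 at 16.7 mM, when *Rian* had adjusted p values of 0.113 and 0.0787 and *Grb10* of 0.117 and 0.0889. *Grb10* was also not called without replicate 1 at 16.7 mM (adjusted p = 0.0844).

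The size of these differences depended on what the counts were scaled to. With total counts alone, the median of all genes shifted to -0.35 in control and -0.47 in *Pcbp2* βKO cells (log2), and in TPM, on the scale log2(TPM + 0.1), to -0.56 and -0.71. With total counts, *Meg3* was at 0.91 (adjusted p = 0.0457) and 0.98 (adjusted p = 0.00581) and *Mirg* at 1.18 (adjusted p = 0.04) and 0.97 (adjusted p = 0.0238), while *Rian*, at 0.59 (adjusted p = 0.162) and 0.48 (adjusted p = 0.123), was not called. On that TPM scale, *Meg3* was at 0.74 (adjusted p = 0.0801, limma) in control and 0.67 (adjusted p = 0.0393) in *Pcbp2* βKO cells, *Mirg* at 0.52 (adjusted p = 0.238) and 0.16 (adjusted p = 0.648), and *Rian* at 0.20 (adjusted p = 0.586) and, with its sign turned, -0.06 (adjusted p = 0.837). All 3 stayed above the median of all genes in both genotypes, and *Grb10*, at -1.39 and -1.88, stayed below it. When the TPM were scaled by TMM factors, a setting added after seeing the data, *Meg3* was at 1.55 and 1.72, *Mirg* at 1.28 and 1.14 and *Rian* at 1.00 and 0.97, each called in both genotypes. *Grb10* was at -0.60 (adjusted p = 0.0576) and -0.85 (adjusted p = 0.00129) there, called in *Pcbp2* βKO cells only, and its call in control cells was also lost with length-scaled counts (adjusted p = 0.0542) and when the compared groups alone were fitted (adjusted p = 0.091). The rise of the 3 noncoding RNAs was thus relative to most other genes, smaller with total counts alone, and on the TPM scales without TMM factors not called for *Rian* and *Mirg*, with *Rian* reversed in *Pcbp2* βKO cells.

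**Figure D3:**
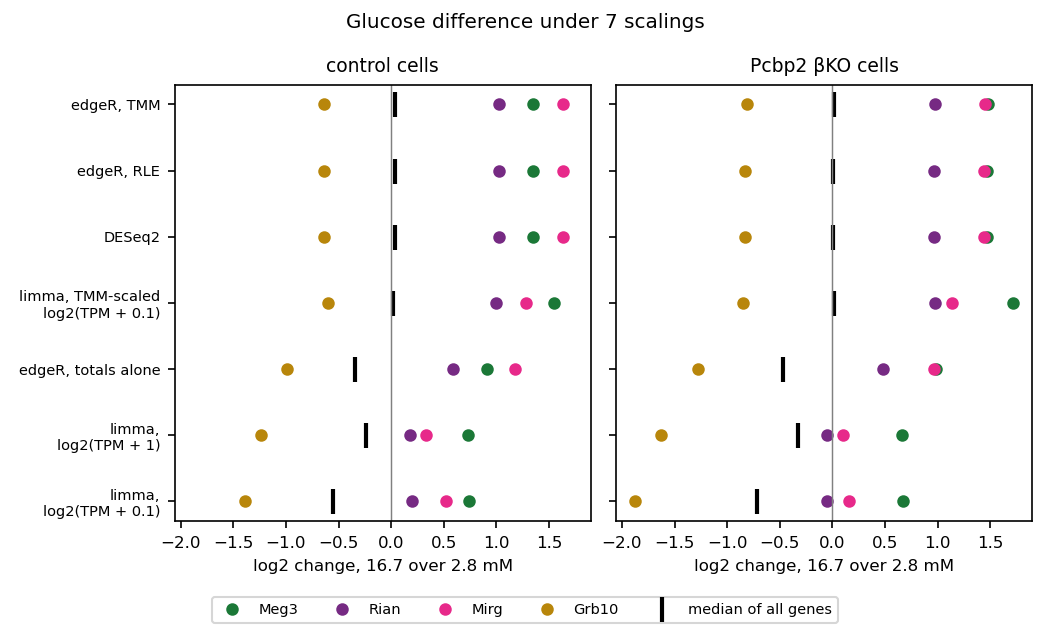
Log2 change between 16.7 mM and 2.8 mM glucose for *Meg3*, *Rian*, *Mirg* and *Grb10* (points) and the median of all genes (black bars) under 7 scalings, in control (left) and *Pcbp2* βKO cells (right). The 3 noncoding RNAs lie to the right of the median of all genes and *Grb10* to its left in every row, while the position of zero moves.

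*Cdkn1c* was among the lowest members. In *Pcbp2* βKO cells it was at 0.402, 0.938, 2.04, 1.49 and 0.41 CPM at 2.8 mM and at 0.188, 0.305, 0.0308, 0.228 and 0.27 CPM at 16.7 mM. All 5 high-glucose samples were below all 5 low-glucose samples. The level at 16.7 mM was 0.196 of that at 2.8 mM (log2 fold change -2.35, SE 0.72, adjusted p = 0.018), and without replicate 3 at 2.8 mM the adjusted p was 0.0544. In control cells *Cdkn1c* was at 0.22, 0.825 and 0.842 CPM at 2.8 mM and at 0.0818, 0.0534, 0.319 and 0.997 CPM at 16.7 mM, where replicate 4 was the highest sample of both groups, and it was not called (log2 fold change -0.77, SE 0.81, adjusted p = 0.59). Without that sample the value in control cells was -2.002 (adjusted p = 0.0895), and with the replicate block within genotype it was -2.13 (adjusted p = 0.0897). The difference between genotypes did not pass the test (interaction -1.59, SE 1.08, adjusted p = 1). Alpha cell markers summed to 1470 to 9200 CPM at 2.8 mM and to 174 to 1320 CPM at 16.7 mM in *Pcbp2* βKO cells, and 6 proliferation markers to 4.07 to 12.8 and 2.18 to 271 CPM. Their part in the value of *Cdkn1c* was not tested.

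*Dlk1*, the paternal gene of the domain, did not pass the test in either genotype. It was at 4.04, 1.79 and 4.66 CPM in control cells at 2.8 mM and at 5.3, 2.23, 7.85 and 3.65 CPM at 16.7 mM. In *Pcbp2* βKO cells it was at 3.82, 2.04, 5.08, 4.27 and 8.19 CPM at 2.8 mM and at 5.56, 5.39, 7.02, 4.11 and 20.7 CPM at 16.7 mM, the last value, of replicate 5, being far above the rest. The log2 fold change with glucose was 0.44 (SE 0.56, adjusted p = 0.658) in control and 0.87 (SE 0.46, adjusted p = 0.168) in *Pcbp2* βKO cells. With the replicate number as a block, *Dlk1* was called in *Pcbp2* βKO cells (log2 fold change 0.77, adjusted p = 0.0158), and without replicate 5 at 16.7 mM its log2 fold change was 0.24. Whether the numbers pair the samples of this genotype is not given by the labels.

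*Peg3* and *Plagl1*, paternally expressed zinc finger genes, and *Igf2* did not pass the test for glucose in either genotype. *Peg3* was at 888, 496 and 782 CPM in control cells at 2.8 mM and at 890, 856, 562 and 1010 CPM at 16.7 mM (log2 fold change 0.20, SE 0.27, adjusted p = 0.686). Its level in *Pcbp2* βKO cells was 1260, 769, 1540, 1500 and 976 CPM at 2.8 mM and 893, 915, 909, 1050 and 1540 CPM at 16.7 mM, and the groups overlapped (log2 fold change -0.19, SE 0.22, adjusted p = 0.583). As a share of all RNA, *Peg3* was called lower at 16.7 mM in these cells, with a log2 fold change of -0.66 (adjusted p = 0.0465) with total counts alone and -1.20 (adjusted p = 0.00113, limma) on the scale log2(TPM + 0.1).

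*Plagl1* varied by replicate number more than by group. In the order of replicates, it was at 6.83, 16.7 and 7.18 CPM in control cells at 2.8 mM and at 6.77, 12.2, 5.91 and 5.94 CPM at 16.7 mM. The *Pcbp2* βKO samples were at 6.62, 16.1, 4.64, 4.67 and 11.6 CPM at 2.8 mM and at 6.45, 12.5, 5.74, 4.41 and 7.12 CPM at 16.7 mM. Replicate 2 was the highest sample of each of the 4 groups, on average 0.88 (log2) above the group mean. The log2 fold change of *Plagl1* with glucose was -0.41 (SE 0.46, adjusted p = 0.607) in control and -0.27 (SE 0.38, adjusted p = 0.654) in *Pcbp2* βKO cells, and its sign turned in both when replicate 2 at 2.8 mM was left out of the genotype. *Igf2* was at 0.35 to 0.696 and 0.0336 to 0.543 CPM in control cells at 2.8 mM and 16.7 mM, and at 0.27 to 0.782 and 0.37 to 0.809 CPM in *Pcbp2* βKO cells, with overlap in both. On the scale log2(TPM + 0.1), *Plagl1* was called lower at 16.7 mM in *Pcbp2* βKO cells (-1.07, adjusted p = 0.0187, limma) and *Igf2* in control cells (-1.14, adjusted p = 0.0292).

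**Figure D4:**
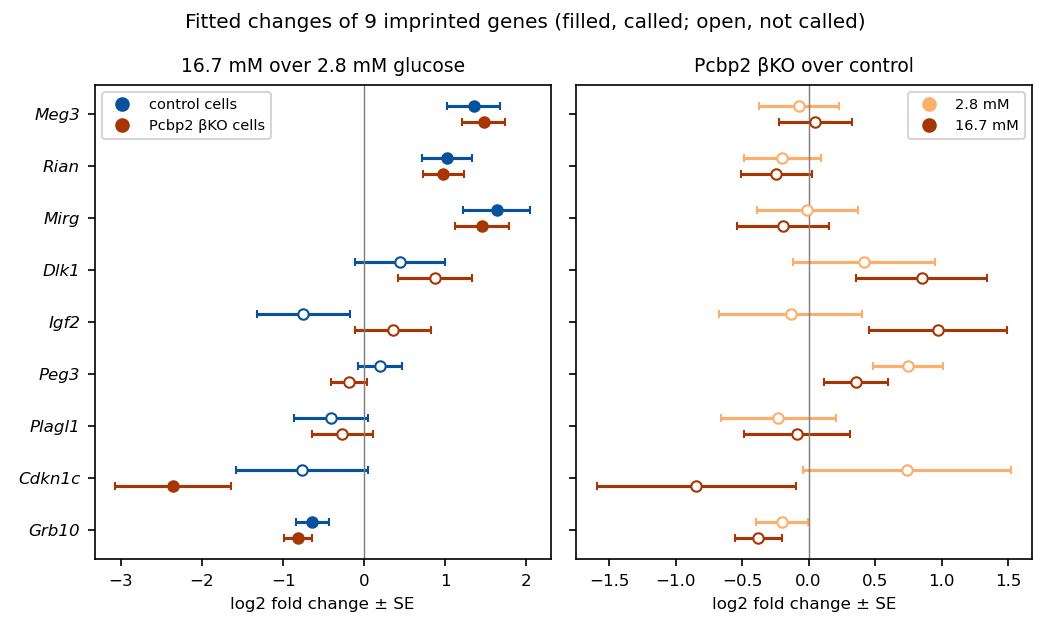
Log2 fold change with SE of the 9 members tested, for 16.7 mM over 2.8 mM glucose in each genotype (left) and for *Pcbp2* βKO over control cells at each glucose concentration (right), with filled points for called members. *Meg3*, *Rian*, *Mirg* and *Grb10* are called for glucose in both genotypes and *Cdkn1c* in *Pcbp2* βKO cells, and no point on the right is filled.

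The second question was whether the knockout of *Pcbp2*, an RNA-binding protein, came with a difference in these genes. No member was called in *Pcbp2* βKO against control cells at either concentration, by edgeR or by DESeq2, where 2.04% of all genes were called at 2.8 mM and 1.71% at 16.7 mM. At an unadjusted p under 0.05 there was 1 of the 9 members at 2.8 mM, *Peg3*, and 1 at 16.7 mM, *Grb10*. Of all 22784 genes tested, 2936 and 2763 had such a p, so these counts set the members apart from other genes in neither comparison. *Peg3* had a mean of 722 ± 203 CPM (SD, n = 3) in control and 1210 ± 334 CPM (SD, n = 5) in *Pcbp2* βKO cells at 2.8 mM, a 1.68-fold difference (log2 fold change 0.74, SE 0.26, adjusted p = 0.198). *Grb10* had a mean of 43 ± 12.1 CPM (SD, n = 4) in control and 33.1 ± 6.34 CPM (SD, n = 5) in *Pcbp2* βKO cells at 16.7 mM (log2 fold change -0.38, SE 0.18, adjusted p = 0.405).

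The log2 fold changes of *Meg3*, *Rian* and *Mirg* with the knockout lay between -0.24 and 0.05, with SE of 0.27 to 0.38. The errors of *Dlk1*, *Igf2* and *Cdkn1c* were larger. *Dlk1* was at 0.42 (SE 0.53) at 2.8 mM and 0.85 (SE 0.49) at 16.7 mM, *Igf2* at -0.14 (SE 0.54) and 0.97 (SE 0.52), and *Cdkn1c* at 0.74 (SE 0.78) and -0.85 (SE 0.75). The interaction of genotype and glucose, which asks whether the glucose difference itself depends on the genotype, called none of the 9 members by edgeR or DESeq2, and none had an unadjusted p under 0.05, while 0.00439% of all genes were called. Of all 22784 genes tested, 1042 had an unadjusted p under 0.05 for the interaction. The interaction estimates of *Meg3*, *Rian* and *Mirg* were 0.13 (SE 0.41), -0.04 (SE 0.40) and -0.18 (SE 0.51).

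The 3 noncoding RNAs of the *Meg3* locus also varied together between samples of the same group. After the group means were subtracted, log2 CPM of *Meg3* and *Mirg* correlated at a Pearson r of 0.903 over the 17 samples (Spearman rho 0.89), those of *Rian* and *Mirg* at 0.855 (rho 0.828) and those of *Meg3* and *Rian* at 0.762 (rho 0.765). In permutation tests within groups, two-sided, with 100000 draws and adjustment over the 3 pairs, the adjusted p was 0.000315, 0.0003 and 0.00181 for r and 0.000165, 0.000165 and 0.00199 for rho. Without the 2 samples farthest from the median of the first gene, r was 0.868, 0.759 and 0.705. Control replicate 4 at 16.7 mM was the lowest point in all 3 pairs and was among the samples left out each time. The permutations treat the samples of a group as exchangeable, although replicate 3 was above its group mean in 4 of 4 groups for each of the 3 RNAs and replicate 4 was below it in 3 of 3 groups for *Rian* and *Mirg*. With the replicate numbers removed as well, a setting added after seeing the data, r was 0.826, 0.671 and 0.648. These tests ask whether 2 genes vary independently and do not set the pairs against other genes. Among genes with a mean of at least 5 CPM, *Fam193a* reached 0.869 with *Meg3* and *Ago3* 0.86 with *Rian*, above *Meg3* with *Rian*. *Mirg* was below that level and not in that comparison, and its r of 0.903 with *Meg3* was higher than these.

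**Figure D5:**
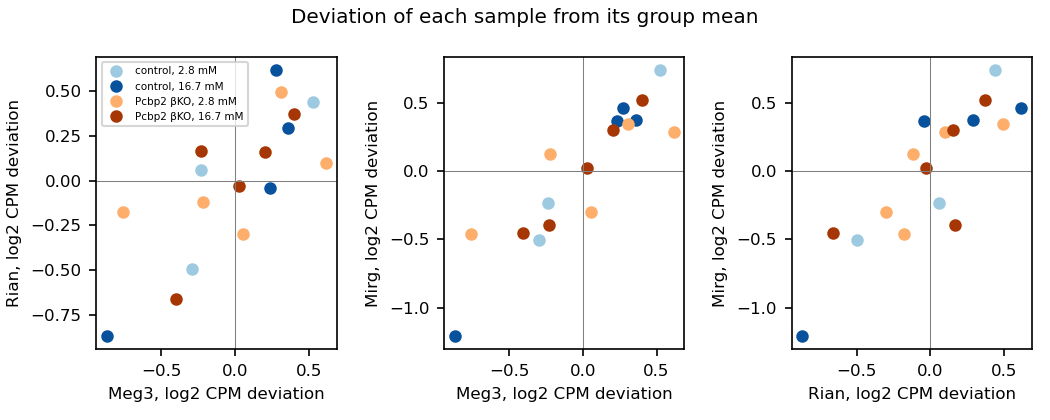
Deviation of each of 17 samples from its group mean (log2 CPM) for the 3 pairs of *Meg3*, *Rian* and *Mirg*, coloured by group. Samples above the group mean for one RNA tend to lie above it for the others, and the lowest point in each panel is replicate 4 of control cells at 16.7 mM.

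Within groups, the members differed in how steady they were. The SD of log2 CPM within groups was 0.279 for *Grb10*, above that of 27% of the genes tested, and 1.21 for *Cdkn1c*, above that of 95.2% of them, against a median of 0.479 over all genes. It was 0.476 for *Meg3*, 0.455 for *Rian* and 0.558 for *Mirg*. As a description, the 2 genes most like each member in group-centred log2 CPM, among 10020 genes with a mean of at least 5 CPM, were *Fam193a* (r = 0.869) and *Ubn2* (0.857) for *Meg3*, *Ago3* (0.86) and *Kcnq1ot1* (0.847) for *Rian*, and *Rnf6* (0.923) and *Zfp746* (0.882) for *Dlk1*. They were *Mlxipl* (0.941) and *Gmpr* (0.94) for *Peg3*, *Kif5c* (0.927) and *Ece2* (0.899) for *Plagl1*, and *Nup37* (0.952) and *Vdac2* (0.939) for *Grb10*. *Kcnq1ot1* is itself an imprinted noncoding RNA, and these samples share libraries and differ in depth and marker content, so the order of such values is a description of these 17 samples.

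The tables hold single transcripts, and 1 transcript led in most members. Peg3-201, of 8694 nt, took mean shares of 56.5% to 59% of the TPM of *Peg3* in the 4 groups, and Peg3-203, annotated as a target of nonsense-mediated decay, took 30.1% to 38.6%. Grb10-201 took 70.8% to 80.7% of *Grb10*. *Meg3* was split between Meg3-205, of 1498 nt, at 34.9% to 50.5%, and Meg3-207, of 1896 nt, at 32.1% to 38.6%.

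The share of the leading transcript was compared between groups for the 6 members with a mean of at least 5 CPM, 24 comparisons in all. Meg3-205 took 47.3% of *Meg3* in control and 34.9% in *Pcbp2* βKO cells at 16.7 mM (exact permutation test, two-sided, p = 0.0159, which is the smallest these groups allow, adjusted p = 0.19). At 2.8 mM its shares were 50.5% and 43.7% (exact p = 0.107, adjusted p = 0.321). Dlk1-205 took 89.7% and 72.6% of *Dlk1* at 16.7 mM (exact p = 0.0476, adjusted p = 0.267), and Grb10-201 took 70.8% and 79.3% of *Grb10* in *Pcbp2* βKO cells at 2.8 mM and 16.7 mM (exact p = 0.0159, adjusted p = 0.19). None of the 24 passed the correction. With 3 against 4 samples, as for glucose in control cells, the exact test cannot give a p under 0.05. Those comparisons could not have passed, and the other small groups limit the test too. No conclusion on the shares is therefore drawn from the lack of a pass. Shares among transcripts of 1 gene are estimates that depend on how Kallisto divided reads between overlapping transcripts.

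Of 56 other imprinted genes, 44 passed the filter. In control cells 9 were called higher and 1 lower at 16.7 mM, and in *Pcbp2* βKO cells 10 higher and 7 lower, with 7 higher and 1 lower in both. The shares of all genes were 7.15% higher and 6.69% lower in control and 13.4% and 10.4% in *Pcbp2* βKO cells. Those higher in both were *Nap1l5*, *Ddc*, *H13*, *Tssc4*, *Inpp5f*, *Slc38a4* and *Zdbf2*, with fold changes of 1.67 to 3.49 in control and 1.74 to 3.77 in *Pcbp2* βKO cells. *Nap1l5*, a nucleosome assembly protein relative, had the largest change of these in control cells, being at 19.7 ± 3.03 CPM (SD, n = 3) at 2.8 mM and 68.7 ± 19.5 CPM (SD, n = 4) at 16.7 mM. *Ddc*, which encodes the decarboxylase that makes dopamine and serotonin, had the largest in *Pcbp2* βKO cells. *Commd1* was lower in both, at 0.425 and 0.575 of its level at 2.8 mM. *Ndn* and *Mkrn3* were called higher in control cells alone, and *Slc22a18*, *Nnat* and *Rtl1* higher and *Peg10*, *Sgce*, *Snhg14*, *Cd81*, *Zim1* and *Sfmbt2* lower in *Pcbp2* βKO cells alone, where the difference between genotypes did not pass the test for any of them. The calls in control cells again rested on few samples, with 5 to 14 of the 44 called when single samples were left out. The fewest, 5, were called without replicate 2 at 2.8 mM, and 6 without replicate 3 at 2.8 mM or replicate 1 or 2 at 16.7 mM. *Mkrn3* was not called under most of the other settings run. Among the calls in *Pcbp2* βKO cells, that of *Cd81* was lost without any 1 of 7 samples and without the 3 that stood apart, that of *Peg10* without any 1 of 5 samples and with the replicate block within genotype, and that of *Snhg14* without either of 2 samples and, with its sign turned, with length-scaled counts and TMM-scaled TPM. On the scale log2(TPM + 0.1), *Tssc4* (-0.03 and -0.16) reversed in both genotypes, *Slc38a4* (-0.07) in control cells, and *H13* (-0.36) and *Zdbf2* (-0.08) in *Pcbp2* βKO cells.

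*Rtl1* is the other paternal gene between *Dlk1* and *Mirg*, and is read from the strand opposite to *Rian*. It was at 0.491 ± 0.233 CPM (SD, n = 5) at 2.8 mM and 0.998 ± 0.341 CPM (SD, n = 5) at 16.7 mM in *Pcbp2* βKO cells (fold change 2.02, adjusted p = 0.0425), and at 0.464 ± 0.111 CPM (SD, n = 3) and 0.802 ± 0.379 CPM (SD, n = 4) in control cells (adjusted p = 0.264). Its call was lost without any 1 of 9 samples, and without the 3 samples that stood apart.

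For the knockout at 2.8 mM, 3 of the 44 other imprinted genes were called, against 2.04% of all genes tested. At an unadjusted p under 0.05 there were 14 of the 44, against 2936 of all 22784 genes. *Usp29*, the neighbour of *Peg3*, was at 9.32 ± 1.09 CPM (SD, n = 3) in control and 18.6 ± 4.27 CPM (SD, n = 5) in *Pcbp2* βKO cells (log2 fold change 1.00, SE 0.24, adjusted p = 0.032), with values of 8.39 to 10.5 and 13.7 to 23.8 CPM that did not overlap. *Slc22a18* was at 0.63 ± 0.226 (SD, n = 3) and 0.193 ± 0.0749 CPM (SD, n = 5), 0.306 of the control level (adjusted p = 0.0464). *Sfmbt2* was at 0 to 0.0116 CPM in control cells, with an estimated count of 1.1 in 1 sample and 0 in the others, and at 0.145 to 0.246 CPM in *Pcbp2* βKO cells, with counts of 10 to 21 (adjusted p = 0.0171). At these counts the size of its difference cannot be set. All 3 calls depended on single samples. None of the 3 was called when low-glucose control replicate 2 or 3 was left out, and 1 was called without low-glucose control replicate 1 or without replicate 1, 3 or 4 of *Pcbp2* βKO cells at 2.8 mM. With the replicate block the adjusted p of *Usp29* was 0.0566. Alpha cell markers at 2.8 mM summed to 638 to 2570 CPM in control and 1470 to 9200 CPM in *Pcbp2* βKO cells, and *Ppy* was at 797 to 835 and 992 to 5110 CPM, and their part in these 3 genes was not tested. At 16.7 mM and for the interaction, none of the 44 was called by edgeR, with 6 and 4 of them at an unadjusted p under 0.05, and DESeq2 called 2 and 0. Of all 22784 genes tested, 2763 and 1042 had such a p.

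Genes that act with the members were listed by family or partnership, and 14 of these 15 passed the filter. With glucose, 1 was called higher and 1 lower in control cells, against 7.15% and 6.69% of all genes tested. In *Pcbp2* βKO cells 2 were called higher and 3 lower, against 13.4% and 10.4%. Counts among 14 genes are not a test of this list. *Igf1r*, the receptor through which *Igf2* signals, was higher at 16.7 mM in both genotypes, at 25.9 ± 4.59 (SD, n = 3) against 73.2 ± 24.1 CPM (SD, n = 4) in control (fold change 2.82, adjusted p = 0.00177) and at 17.1 ± 4.89 (SD, n = 5) against 47.3 ± 6.06 CPM (SD, n = 5) in *Pcbp2* βKO cells (fold change 2.77, adjusted p = 8.27e-05). *Igf1*, a second ligand of that receptor, was lower in both, at 0.655 ± 0.377 (SD, n = 3) against 0.108 ± 0.0768 CPM (SD, n = 4) in control (adjusted p = 0.0364) and 1.38 ± 0.757 (SD, n = 5) against 0.16 ± 0.168 CPM (SD, n = 5) in *Pcbp2* βKO cells (adjusted p = 0.00213). The call of *Igf1* in control cells was lost with the replicate block within genotype and without any 1 of 5 control samples, the highest adjusted p being 0.143. Of 5 macrophage markers, 1 was called lower at 16.7 mM in control cells and 4 lower and 1 higher in *Pcbp2* βKO cells. *Csf1r* was at 0.735 to 3.63 against 0.102 to 0.655 CPM in control and at 1.34 to 4.61 against 0.0684 to 0.514 CPM in *Pcbp2* βKO cells. *C1qa*, the marker with the highest level and the one called higher, was at 66.5 to 92.5 against 36.3 to 95.9 CPM in control cells. In *Pcbp2* βKO cells *C1qa* was at 12.7 to 21.8 against 19.4 to 101 CPM. The part of these markers in the values of *Igf1* was not tested. In *Pcbp2* βKO cells, *Cdkn1a*, which encodes the p21 inhibitor of the same family as *Cdkn1c*, was at 0.446 of its low-glucose level (adjusted p = 0.00256), *Notch2* at 0.306 of it (adjusted p = 0.0111), and *Notch1* was 1.99-fold higher (adjusted p = 0.000622), a change that reversed to -0.09 (log2) on the scale log2(TPM + 0.1). None of the 14 was called for the knockout at either concentration, with 2 and 4 at an unadjusted p under 0.05, or for the interaction, with 1, and DESeq2 called none of them either. Of all 22784 genes tested, 2936, 2763 and 1042 had such a p.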

How the data were processed

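RNA was sequenced from 17 samples of FACS-sorted tdTomato+ β cells, grouped by the genotype and glucose concentration in their labels. The authors aligned reads to the GRCm39 (mm39) mouse transcriptome with Kallisto (version not given in the sources used here) and deposited, for each transcript, estimated counts with no scaling across samples, and TPM, which Kallisto scaled to effective length and to the same total in each sample. Their edgeR design held a batch factor whose levels the labels do not give, so batch was not fitted.

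The study made gene counts with tximport. Here estimated counts were summed per gene, rounded, scaled with TMM factors (0.752 to 1.29) and fitted as 4 group means with the quasi-likelihood test of edgeR 4.0.16 (R 4.3.3) on 22784 genes, from libraries of 47385513 to 82419400 counts, with Benjamini-Hochberg adjustment over all of them. The thresholds were 0.05 for the adjusted p and 1.5 for the fold change. The SE is the log2 estimate divided by the square root of F, and a prior count of 2 was used for log2 CPM. The scripts were tested on simulated counts. The text names all 10 members, *Pcbp2*, every called gene of the lists of other imprinted genes and of relatives, and the 2 genes most like each member with a mean of at least 5 CPM. The members and lists were chosen with earlier results of these data known. Alternatives were RLE factors, total counts alone, no filter on low counts, DESeq2 1.42.0, length-scaled counts, limma 3.58.1 on log2(TPM + 1) and log2(TPM + 0.1), fits of the compared groups alone, replicate blocks, and samples left out, singly or as the 3 that stood apart.

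Replicate numbers are shared between groups. Deviations from the group means of same-numbered control samples at 2.8 mM and 16.7 mM correlated across genes at 0.199, 0.123 and 0.258. In every other pair of groups at least 1 correlation was under 0.1. In *Pcbp2* βKO cells, same-numbered samples at the 2 concentrations correlated at 0.0664, 0.171, 0.105, 0.0746 and 0.193 for replicates 1 to 5. Each was the highest value of that low-glucose sample with any high-glucose *Pcbp2* βKO sample. Over all pairs of samples from different groups, the median was 0.096 for same numbers and -0.0155 for different numbers. The main fit of group means held no replicate term, so its tests were not paired by number in either genotype. Replicate numbers entered only the fits with a replicate block, given as alternatives. What a number stands for is not stated in the labels or methods.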

Additional observations from a re-analysis of the deposited data

Results flagged for a closer look

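In 3 places a sample lay farther from its group than the spacing of the other samples allows at the 95% level of Dixon's test, in log2 CPM of 9 members in 3 groups of 4 or 5 samples, a test that marks about 1 in 20 groups by chance. In replicate 4 of control cells at 16.7 mM, *Meg3* was at 132 CPM (gap to the next sample over the whole range 0.899) and *Mirg* at 1.69 CPM (0.941), both below the other 3 samples. These are the 2 members that correlated most closely between samples, and the shift of cell markers in that sample is given with the glucose comparison. In replicate 3 of *Pcbp2* βKO cells at 16.7 mM, *Cdkn1c* was at 0.0308 CPM (0.752), the lowest value of that gene in any sample.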

How the results depend on the processing

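The counts of members called for glucose in *Pcbp2* βKO cells (5), for the knockout at either concentration (0) and for the interaction (0) stayed within 1.5 times under the alternatives run. The members behind the count of 5 did not all stay the same. With total counts alone, *Rian* left it and *Peg3* entered. With limma on log2(TPM + 1) and on log2(TPM + 0.1), *Rian* and *Mirg* left it and *Peg3* and *Plagl1* entered. For glucose in control cells, the count of 4 became 1 with limma on log2(TPM + 1) (*Grb10*), 2 with log2(TPM + 0.1) (*Grb10* and *Igf2*, the latter not among the 4) and 2 when the compared groups alone were fitted (*Meg3* and *Mirg*), and 0 to 4 when single samples were left out. With the replicate block 4 were called in control and 6 in *Pcbp2* βKO cells, the added one being *Dlk1* (within genotype 0.74, adjusted p = 0.0209), and no other call of a member changed. Of the recomputed values of called members, 231 kept direction and call, 28 lost the call and 2 reversed.

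The values that reversed are log2 fold changes. With total counts alone they were -0.179 for *Peg3* with glucose in control cells, -0.111 for *Igf2* in *Pcbp2* βKO cells, and 0.044 for *Meg3* and 0.097 for *Mirg* with the knockout at 2.8 mM. With length-scaled counts they were 0.015 for *Meg3* and 0.131 for *Mirg* with the knockout at 2.8 mM, and 0.035 for *Snhg14* with glucose in *Pcbp2* βKO cells. With log2(TPM + 1), glucose gave -0.267 for *Dlk1*, -0.591 for *Peg3*, -0.034 for *Tssc4* and -0.069 for *Slc38a4* in control cells, and -0.047 for *Rian*, -0.148 for *Dlk1*, -0.161 for *Igf2*, -0.159 for *Tssc4*, -0.353 for *H13*, 0 for *Rtl1*, -0.028 for *Zdbf2* and -0.052 for *Notch1* in *Pcbp2* βKO cells, while the knockout at 2.8 mM gave 0.147 for *Meg3*, 0.154 for *Mirg*, 0.023 for *Igf2* and 0.002 for *Grb10*. With log2(TPM + 0.1), glucose gave -0.406 for *Dlk1*, -0.598 for *Peg3*, -0.034 for *Tssc4* and -0.07 for *Slc38a4* in control cells, and -0.055 for *Rian*, -0.216 for *Dlk1*, -0.473 for *Igf2*, -0.161 for *Tssc4*, -0.357 for *H13*, -0.084 for *Zdbf2* and -0.089 for *Notch1* in *Pcbp2* βKO cells, while the knockout at 2.8 mM gave 0.15 for *Meg3*, 0.266 for *Mirg*, 0.05 for *Igf2* and 0.002 for *Grb10*. With the replicate block the knockout gave 0.166 for *Mirg* at 2.8 mM and -0.002 for *Meg3* at 16.7 mM. Without the 3 samples that stood apart it gave 0.001 for *Mirg* at 2.8 mM, and -0.107 for *Meg3* and 0.177 for *Cdkn1c* at 16.7 mM. On the TMM-scaled TPM, chosen after seeing the data, it gave 0.005 for *Meg3* and 0.129 for *Mirg* at 2.8 mM, and glucose 0.166 for *Snhg14* in *Pcbp2* βKO cells.

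When single samples were left out, ranges crossed 0 for glucose with *Peg3* (-0.013 to 0.374) and *Plagl1* (-0.721 to 0.133) in control and *Plagl1* (-0.559 to 0.07) in *Pcbp2* βKO cells. They did so for the knockout at 2.8 mM with *Meg3* (-0.249 to 0.238), *Rian* (-0.41 to 0.043), *Mirg* (-0.242 to 0.47), *Plagl1* (-0.568 to 0.319) and *Igf2* (-0.415 to 0.157), and at 16.7 mM with *Meg3* (-0.176 to 0.16), *Plagl1* (-0.376 to 0.223) and *Cdkn1c* (-1.2 to 0.395). Causes other than the scaling itself were not tested. *Cdkn1c* and *Igf2*, near or under 1 CPM in most samples, had the largest errors of the members tested, and differences within those errors were not detectable at this depth.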
